A study of Mus musculus with 10 samples.

Results

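Arginases, inducible nitric oxide synthase, the cyclooxygenases and their partners, 5-lipoxygenase and the enzymes that break down aromatic amino acids use, make or clear small molecules that act on immune cells. Their 10 genes are Arg1, Arg2, Nos2, Ptgs1, Ptgs2, Ptges, Hpgd, Alox5, Ido1 and Il4i1. They were taken by name and not by a measured value. All 10 were found among the 17864 genes of the count table, and all 10 passed the filter on low counts, which kept 14816 genes.

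Arginase and inducible nitric oxide synthase use the same substrate, arginine, and myeloid-derived suppressor cells and macrophages of tumors are known to use both against T cells. Cyclooxygenases turn arachidonic acid into prostaglandin H2, from which Ptges makes prostaglandin E2, an inhibitor of lymphocytes, and Hpgd inactivates it, while Alox5 turns the same fatty acid into leukotrienes. Ido1 degrades tryptophan to kynurenine and Il4i1 is a secreted oxidase of aromatic amino acids, and products of both can activate the aryl hydrocarbon receptor.

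RNA of whole tumors grown from 4T1 cells, a line of mouse mammary carcinoma, was sequenced. The design set 5 tumors whose cells carried a control guide (sgCon) against 5 whose cells carried a guide to the gene that encodes TAZ, a transcriptional coactivator of the Hippo pathway (sgTaz), and asked how TAZ of the tumor cells bears on the tumor and its immune cells. All 10 tumors were named as carrying Cas9, so that cells of both groups held the nuclease and differed in the guide, and only the injected cells were edited. By the methods, female mice of 6 to 8 weeks received 100000 cells in a mammary fat pad. BALB/c and SCID hosts are named there, and the labels do not say which of them bore the sequenced tumors. Whether the edited cells were 1 clone is not stated either. Tumors are numbered from 1 to 5 in each group as the labels number them, and since nothing says that each came from its own mouse, p-values measure the spread between these tumors only.

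The totals of the sgCon tumors ranged from 14753922 to 19595821 counts, those of the sgTaz tumors from 12185383 to 18395558. Wwtr1, which encodes TAZ, stood at 163 ± 30.2 CPM in sgCon tumors and 108 ± 19.2 CPM in sgTaz tumors (mean ± SD, n = 5 each), where CPM is the count of a gene as a share of its TMM-scaled library. The log2 fold change of Wwtr1 was -0.59 (SE 0.15, edgeR adjusted p = 0.0960), and the groups overlapped. The labels name each sample as a 4T1 tumor, and epithelial markers were present in every tumor, at a summed 2008 to 4434 CPM in sgCon and 1499 to 3429 CPM in sgTaz tumors. All 9 of them had log2 fold changes below 0, and the part of the share of tumor cells in the level of Wwtr1 was not tested. Macrophage markers were also present in every tumor, at 1940 to 4459 CPM in sgCon tumors and 3535 to 4612 CPM in sgTaz tumors, so that the enzymes were measured over a mixture of cells. Markers of lymph node stroma and of high endothelium summed to 35.2 to 700 CPM in sgCon tumors. In sgTaz tumors 1 to 4 they stood at 1.55 to 7.45 CPM and in sgTaz tumor 5 at 350 CPM, so that sgCon tumor 3 and sgTaz tumor 5 were the highest of their groups. Markers of T cells summed to 98.4 to 648 CPM in sgCon and to 77.7 to 203 CPM in sgTaz tumors. The study describes SCID mice as without a functional adaptive immune system, and which host bore these tumors was not tested. No marker of the 13 lists was at 0 counts in all 10 tumors.

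None of the 10 enzyme genes passed an adjusted p of 0.05 in edgeR's quasi-likelihood test over all genes. At an unadjusted p below 0.05, Arg1 and Ptgs1 were higher in sgTaz tumors and none was lower. Among all genes tested, 0.00675% passed the adjusted threshold as higher and 0.0% as lower. The unadjusted threshold was passed by 9.86% of all genes as higher and by 11.9% as lower, so that 2 of 10 and 0 of 10 enzyme genes are to be read against those shares. The groups did not overlap for 2.44% of all genes as higher and for 2.13% as lower, and they overlapped for each of the 10 enzyme genes. In the exact two-sided permutation test of log2 CPM, Ptgs1 alone among the 10 had a p below 0.05, which 19.2% of all genes had. DESeq2 called Ptgs1 as higher and none of the 10 as lower, beside 3.28% and 3.47% of all genes. Limma-voom with sample quality weights did the same, beside 4.63% and 5.8% of all genes. Without sgCon tumor 3 and sgTaz tumor 5, an alternative chosen after the data were seen, edgeR called 0 of the 10. There 4 of the 10 had an unadjusted p below 0.05, as had 1330 genes that were higher and 1419 that were lower among the 14808 tested. The median log2 fold change of the 10 genes was 0.16, with 6 above and 4 below 0, and that of all genes tested was -0.02.

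**Figure D1:**
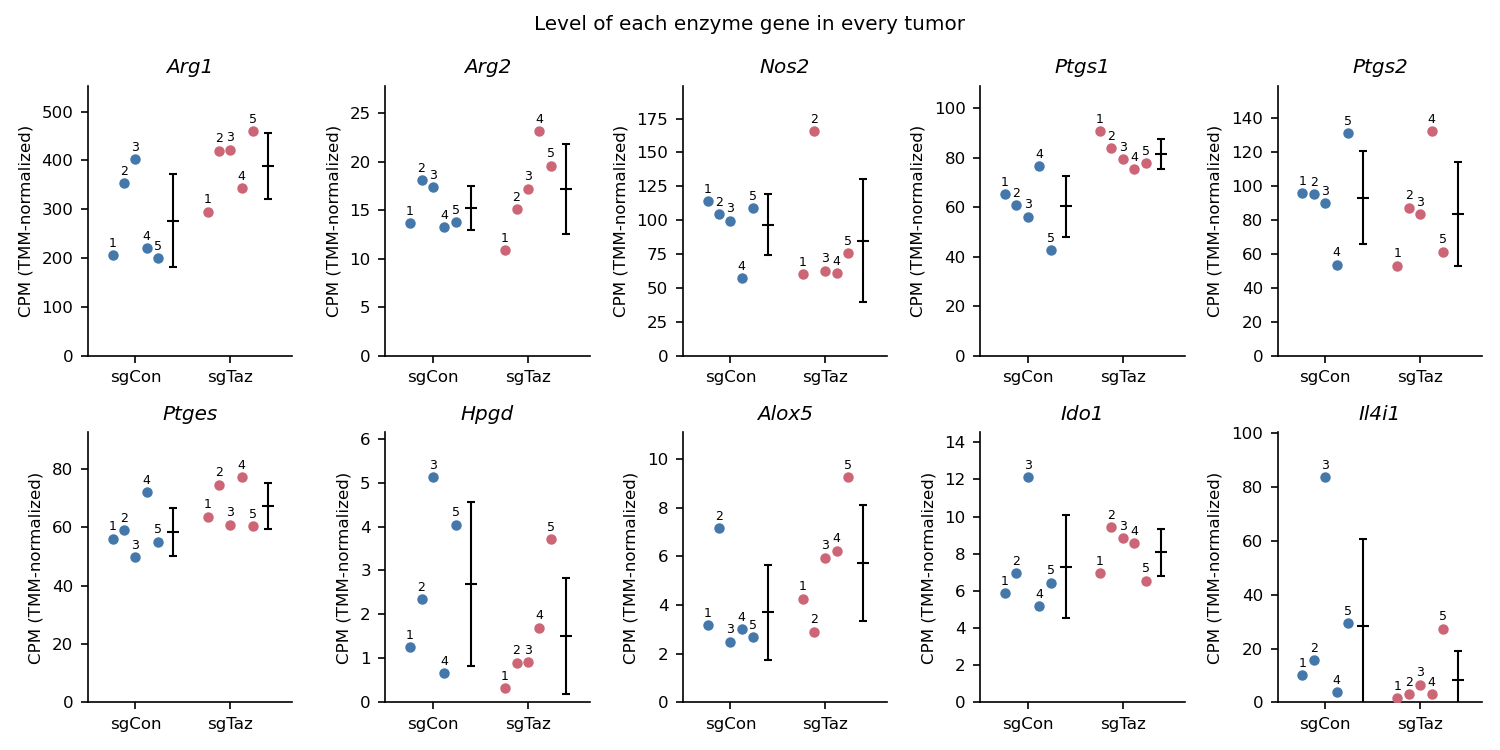
CPM of the 10 enzyme genes in each tumor, with sgCon tumors in blue and sgTaz tumors in red, each point numbered by its tumor and the mean with SD (n = 5) in black at the right of each group. The SD bars of Il4i1 reach below 0 and are cut at the axis. In Ptgs1, 4 of 5 sgTaz tumors lie above all sgCon tumors, and the groups overlap in every panel.

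Arg1 had by far the highest level of the 10 genes per length of transcript, and among the rest the order was mostly within the spread of the tumors. On the scale of RPKM, CPM divided by the length of the exons in kilobases, Arg1 stood at 124 ± 42.5 in sgCon tumors and 174 ± 30.2 in sgTaz tumors (SD, n = 5 each). In sgCon tumors the next were Nos2 at 21.9 ± 5.15, Ptgs2 at 20.4 ± 6.02, Ptgs1 at 15.5 ± 3.19 and Ptges at 14.9 ± 2.11 RPKM. Arg2 at 10.7 ± 1.61, Il4i1 at 7.00 ± 7.89, Ido1 at 4.00 ± 1.51, Hpgd at 1.60 ± 1.11 and Alox5 at 0.901 ± 0.475 RPKM followed. Apart from Arg1 and Nos2, neighbours in this order overlapped in range. In sgTaz tumors Ptgs1 stood second, at 20.9 ± 1.57 RPKM, before Nos2 at 19.3 ± 10.3, Ptgs2 at 18.3 ± 6.75, Ptges at 17.1 ± 2.02 and Arg2 at 12.03 ± 3.23 RPKM. The lower end held Ido1 at 4.42 ± 0.687, Il4i1 at 2.05 ± 2.65, Alox5 at 1.39 ± 0.581 and Hpgd at 0.896 ± 0.787 RPKM. Here the steps from Arg1 to Ptgs1 and from Arg2 to Ido1 were free of overlap, and the other neighbours overlapped.

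Arginine is split to ornithine and urea by the arginases, of which Arg1 is the cytosolic form and a marker of suppressive myeloid cells. Arg1 (ENSMUSG00000019987.9, chromosome 10 from 24915221 to 24927484 of mm10, minus strand) was at 206, 354, 403, 220.3 and 200.1 CPM in sgCon tumors 1 to 5 and at 295, 420.3, 422, 343 and 460.3 CPM in sgTaz tumors 1 to 5. Tumors 1, 4 and 5 of the sgCon group lay below all sgTaz tumors, sgCon tumors 2 and 3 lay among them, and sgTaz tumors 2, 3 and 5 lay above all sgCon tumors. The mean was 277 ± 94.8 CPM in sgCon and 388 ± 67.3 CPM in sgTaz tumors (SD, n = 5 each). The edgeR fit gave a log2 fold change of 0.49 (SE 0.21), with an unadjusted p of 0.0409 and an adjusted p of 0.209 in the quasi-likelihood test, and the exact permutation test gave p = 0.0714. With 1 tumor left out the permutation p lay between 0.0397, without sgCon tumor 3, and 0.135. The unadjusted edgeR p lay between 0.00511 and 0.0956 and was above 0.05 in 6 of the 10 leave-outs, those of sgCon tumors 1, 4 and 5 and of sgTaz tumors 2, 3 and 5. In RNA of whole tumors, fewer cells of a type and less RNA per cell cannot be told apart. The neutrophil and PMN-MDSC markers had log2 fold changes below 0 for all 9 tested genes, at a summed 213 to 819 CPM in sgCon and 78.7 to 317 CPM in sgTaz tumors, while all 11 macrophage markers had log2 fold changes above 0, and the part of either in the level of Arg1 was not tested.

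Arg2, the mitochondrial arginase (ENSMUSG00000021125.6, chromosome 12 from 79130777 to 79156301, plus strand), was at 13.7, 18.1, 17.3, 13.3 and 13.8 CPM in sgCon tumors and at 10.9, 15.1, 17.2, 23.1 and 19.6 CPM in sgTaz tumors, listed in both groups from tumor 1 to tumor 5. The sgTaz tumors spanned the sgCon range on both sides, with sgTaz tumor 1 the lowest and sgTaz tumor 4 the highest of all. Its log2 fold change was 0.17 (SE 0.19, edgeR adjusted p = 0.629), and with 1 tumor left out it lay between 0.04, without sgTaz tumor 4, and 0.30, without sgTaz tumor 1. Of its 1428 exon bases, 285 are shared with Vti1b and 116 with Gm48780 on the opposite strand, and the strand setting of the counting was not stated, so that a part of its counts is uncertain.

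Nos2, the inducible synthase that makes nitric oxide from arginine in activated macrophages and myeloid suppressor cells (ENSMUSG00000020826.8, chromosome 11 from 78920787 to 78960254, plus strand), was at 114, 104, 99.8, 57.2 and 109 CPM in sgCon tumors 1 to 5. In sgTaz tumors 1 to 5 it was at 60.0, 166, 62.8, 61.0 and 75.5 CPM. A single tumor of each group stood away from its group, sgCon tumor 4 below and sgTaz tumor 2 above, and the other 4 sgCon tumors lay above the other 4 sgTaz tumors. The log2 fold change over all tumors was -0.19 (SE 0.29, edgeR adjusted p = 0.742), with an exact permutation p of 0.444. DESeq2 gave -0.17 (adjusted p = 0.783). Limma-voom with sample quality weights gave -0.53 (SE 0.21, unadjusted p = 0.0273, adjusted p = 0.1145), so that the size depends on the tool. Without sgTaz tumor 2 the edgeR log2 fold change was -0.58 with an adjusted p of 0.0979, and without sgTaz tumor 1, 3 or 4 it was -0.08, -0.09 and -0.09, with adjusted p of 0.907, 0.908 and 0.914.

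The 2 arginases and Nos2 were also compared within tumors, as ratios of genes in 1 library. The log2 ratio of Arg1 to Nos2 was 0.85, 1.76, 2.01, 1.94 and 0.88 in sgCon tumors 1 to 5 and 2.29, 1.34, 2.75, 2.49 and 2.61 in sgTaz tumors 1 to 5. Tumors 1, 3, 4 and 5 of the sgTaz group lay above all sgCon tumors, and sgTaz tumor 2 lay within them. The difference of 0.81 gave p = 0.0714 in an exact two-sided permutation test and 0.146 after adjustment over the 5 ratios computed. For Arg1 to Arg2, the log2 ratio was 4.12 ± 0.283 in sgCon and 4.51 ± 0.366 in sgTaz tumors (SD, n = 5 each), a difference of 0.39 with an exact permutation p of 0.0873 and an adjusted p of 0.146.

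Of 19 other genes of arginine transport, nitric oxide and polyamines, 17 were tested and none passed the adjusted threshold of edgeR. DESeq2 called Slc7a1 as higher and Oaz1 as lower, and limma-voom called these and, as lower, Smox, the spermine oxidase, which was named for this call. Of all genes, DESeq2 called 3.28% as higher and 3.47% as lower, and limma-voom 4.63% and 5.8%. At an unadjusted p below 0.05, 1 was higher and 2 were lower, beside 9.86% and 11.9% of all genes. The median log2 fold change of the 17 was 0.03. Slc7a1, an arginine transporter of most cells, was at 74.7, 76.1, 87.1, 75.6 and 70.5 CPM in sgCon tumors and 103, 90.9, 93.8, 93.5 and 81.9 CPM in sgTaz tumors, with a log2 fold change of 0.27 (SE 0.08, edgeR unadjusted p = 0.00566, adjusted p = 0.113). Oaz1, the antizyme that sends ornithine decarboxylase to degradation, was at 354, 353, 424, 453 and 383 CPM in sgCon tumors and 316, 344, 297, 262 and 293 CPM in sgTaz tumors. The groups of Oaz1 did not overlap, as for 2.13% of all genes as lower, and its log2 fold change was -0.38 (SE 0.10, edgeR adjusted p = 0.0960). Odc1, ornithine decarboxylase, which uses the ornithine that Arg1 makes, had a log2 fold change of 0.15 (SE 0.07, edgeR unadjusted p = 0.0553). Ass1, which helps to rebuild arginine from citrulline after nitric oxide is made, stood at -0.39 (SE 0.14, unadjusted p = 0.0180), and Slc7a2, the arginine transporter of activated macrophages, at 0.37 (SE 0.26, unadjusted p = 0.188). Agmat is not analysed here.

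Ptgs1, the gene with the smallest p of the 10, encodes COX-1, the cyclooxygenase held to be expressed without a stimulus. Ptgs2 encodes COX-2, the form induced in inflammation. Because both act on the same substrate, the sequences before their start sites are shown side by side, as the 250 bases upstream of the start in RefSeq of GRCm38.p6 on the plus strand, at chr2:36230176-36230425 for Ptgs1 and chr1:150099781-150100030 for Ptgs2. Capitals mark a match to the C/EBP motif.
Ptgs1: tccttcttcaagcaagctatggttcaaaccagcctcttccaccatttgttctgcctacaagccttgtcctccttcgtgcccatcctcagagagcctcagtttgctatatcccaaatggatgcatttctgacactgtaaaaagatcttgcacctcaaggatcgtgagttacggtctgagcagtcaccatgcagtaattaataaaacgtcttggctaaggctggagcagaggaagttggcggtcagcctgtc
Ptgs2: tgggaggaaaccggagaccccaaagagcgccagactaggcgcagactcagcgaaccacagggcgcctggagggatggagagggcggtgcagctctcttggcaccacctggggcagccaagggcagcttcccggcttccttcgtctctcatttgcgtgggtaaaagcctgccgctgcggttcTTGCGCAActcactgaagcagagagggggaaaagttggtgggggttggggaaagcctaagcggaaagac
In the window of 250 bases before and 50 after the start, searched on both strands, the C/EBP motif TTGCNNAA was found in Ptgs2, from 69 bases before the start, and not in Ptgs1, and 10.8% of 32851 RefSeq promoters of this length hold it. RefSeq promoters were matched for 6 of the 10 genes, which are Ptgs1, Ptgs2, Ptges, Hpgd, Alox5 and Il4i1. The TEAD motif GGAATG, bound by the partners of TAZ, was found in Ptges alone of the 6, from 151 bases before the start, and in 14.7% of all promoters. The TATA box TATAAA was found in Hpgd alone, from 4 bases after the RefSeq start, and in 13.6% of all promoters. For Ptges, Hpgd and Il4i1 the RefSeq start differs from the start of the gene as positioned below. Their windows lie at chr2:30903248-30903547, chr8:56294302-56294601 and chr7:44836038-44836337. The STAT motif TTCNNNGAA, in 8.30% of all promoters, the NF-kB motif, in 0.411%, and the interferon response element ISRE, in 3.44%, were found in none of the 6. These matches describe the letters of the windows only.

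Ptgs1 (ENSMUSG00000047250.13, chromosome 2 from 36230426 to 36252272, plus strand) was at 65.3, 60.9, 56.2, 76.5 and 42.7 CPM in sgCon tumors 1 to 5 and at 90.7, 83.9, 79.2, 75.2 and 77.8 CPM in sgTaz tumors 1 to 5. The sgTaz tumors lay close together, 4 of them above every sgCon tumor, and the lowest, sgTaz tumor 4, lay just under sgCon tumor 4. The mean was 60.3 ± 12.4 CPM in sgCon and 81.4 ± 6.10 CPM in sgTaz tumors (SD, n = 5 each). The edgeR fit gave a log2 fold change of 0.43 (SE 0.13), with an unadjusted p of 0.00721 and an adjusted p of 0.118. The exact permutation test gave p = 0.0159 and 0.186 after adjustment over all genes, of which none passed, the smallest adjusted p being 0.174. DESeq2 gave an adjusted p of 0.0463 with a log2 fold change of 0.45 and limma-voom an adjusted p of 0.0360 with 0.46, so that the call depends on the tool. Over all alternatives the adjusted p of Ptgs1 lay between 0.0360 and 0.247. The summed macrophage markers, in the same order of tumors, were at 2561, 3882, 3326, 4459 and 1940 CPM in sgCon and 4080, 3535, 4365, 4612 and 4598 CPM in sgTaz tumors. In sgCon tumors, tumor 4 was the highest and tumor 5 the lowest of its group in both Ptgs1 and this sum, whereas in sgTaz tumors tumor 4 was the highest in the sum and the lowest in Ptgs1. Apoe made up most of the sum in every tumor. Of its genes, Adgre1, Csf1r, Cd68, Mrc1 and Cd163 were highest in sgCon tumor 2 within their group, and the others in sgCon tumor 4. The part of macrophages in the level of Ptgs1 was not tested.

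Ptgs2 (ENSMUSG00000032487.8, chromosome 1 from 150100031 to 150108227, plus strand) was at 96.0, 95.3, 90.0, 53.7 and 131 CPM in sgCon tumors 1 to 5 and at 53.1, 87.4, 83.7, 133 and 61.5 CPM in sgTaz tumors 1 to 5. High and low tumors were found in both groups, and the ranges were almost the same. Its log2 fold change was -0.16 (SE 0.26, edgeR adjusted p = 0.755), with an exact permutation p of 0.524. With 1 tumor left out it lay between -0.38, without sgTaz tumor 4, and -0.0023, without sgCon tumor 5. For Ptgs2 to Ptgs1, the log2 ratio was 0.55, 0.65, 0.68, -0.51 and 1.62 in sgCon tumors and -0.77, 0.06, 0.08, 0.82 and -0.34 in sgTaz tumors. The highest ratio was that of sgCon tumor 5 and the lowest that of sgTaz tumor 1, and the groups overlapped. The difference of -0.63 gave an exact permutation p of 0.183 and an adjusted p of 0.228 over the 5 ratios.

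Ptges, the inducible synthase of prostaglandin E2 (ENSMUSG00000050737.13, chromosome 2 from 30889471 to 30929863, minus strand), was at 56.1, 59.1, 49.8, 72.0 and 55.1 CPM in sgCon tumors 1 to 5. In sgTaz tumors 1 to 5 it was at 63.7, 74.7, 60.9, 77.1 and 60.5 CPM. It had the smallest relative spread of the 10 genes in sgCon tumors, with an SD of 14.2% of the mean, and its sgTaz tumors all lay above the sgCon median. The log2 fold change was 0.20 (SE 0.11), with an adjusted p of 0.306 in edgeR and an exact permutation p of 0.111. Without sgCon tumor 4, the highest of its group, the permutation p was 0.0238.

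Hpgd, which oxidizes and so inactivates prostaglandin E2 (ENSMUSG00000031613.9, chromosome 8 from 56294585 to 56321043, plus strand), was at 1.26, 2.35, 5.12, 0.666 and 4.04 CPM in sgCon tumors 1 to 5 and at 0.318, 0.904, 0.911, 1.70 and 3.71 CPM in sgTaz tumors 1 to 5. These levels rest on 5 to 82 counts per tumor, and the highest tumors of the groups, sgCon tumor 3 and sgTaz tumor 5, were also the highest in genes of lymph node stroma. Its log2 fold change was -0.84 (SE 0.64, edgeR adjusted p = 0.464), with an exact permutation p of 0.262. Without sgCon tumor 3 it was -0.46 and without sgTaz tumor 5 it was -1.50. The log2 ratio of Ptgs2 to Hpgd, the inducible enzyme against the clearing one, was 5.31 ± 0.840 in sgCon and 5.97 ± 1.13 in sgTaz tumors (SD, n = 5 each), and the difference of 0.66 gave an exact permutation p of 0.310.

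**Figure D2:**
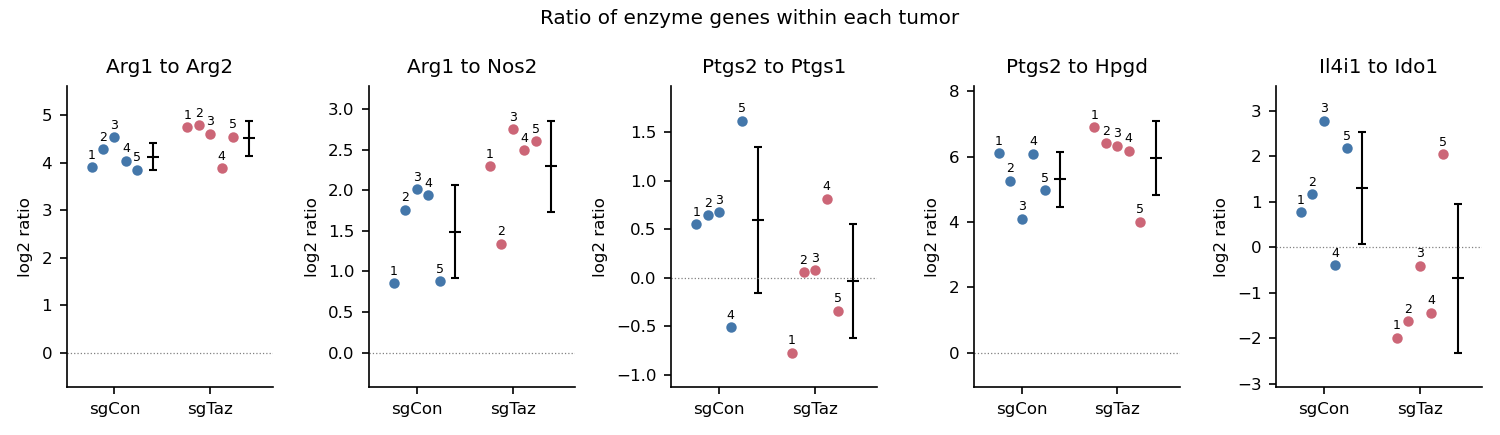
Log2 ratio of the CPM of pairs of enzyme genes within each tumor, with sgCon tumors in blue and sgTaz tumors in red, points numbered by tumor and mean with SD (n = 5) in black, and a dotted line at equal CPM. In Arg1 to Nos2, 4 of 5 sgTaz tumors lie above all sgCon tumors, and all pairs overlap.

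Of 22 other genes of prostaglandin synthesis, transport and reception, 18 were tested and none passed the adjusted threshold of edgeR. DESeq2 called Tbxas1 as higher and Tbxa2r as lower, and limma-voom called these and, as higher, Pla2g4a and Abcc4, an exporter of prostaglandins that was named for this call. The shares over all genes were 3.28% as higher and 3.47% as lower in DESeq2 and 4.63% and 5.8% in limma-voom. At an unadjusted p below 0.05, 3 were higher and 2 were lower, beside 9.86% and 11.9% of all genes. The median log2 fold change of the 18 was -0.11. Tbxas1, the synthase of thromboxane, was at 22.6, 33.6, 24.4, 39.5 and 17.3 CPM in sgCon tumors and 46.1, 34.2, 54.3, 58.5 and 53.7 CPM in sgTaz tumors, with a log2 fold change of 0.84 (SE 0.22, edgeR adjusted p = 0.0960). Only sgTaz tumor 2 was within the sgCon range for Tbxas1. The sgCon tumors stood in the same order, 4, 2, 3, 1 and 5, in Tbxas1 and in the summed macrophage markers, and in sgTaz tumors tumor 4 was the highest and tumor 2 the lowest in both. That sum was mostly Apoe, and some of its genes were highest in sgCon tumor 2 and not 4. The part of macrophages in the level of Tbxas1 was not tested. Pla2g4a, the phospholipase that frees arachidonic acid for both cyclooxygenases and for Alox5, had a log2 fold change of 0.37 (SE 0.12, edgeR unadjusted p = 0.00883, adjusted p = 0.125). Tbxa2r, the thromboxane receptor, was at 3.06, 4.30, 15.6, 0.999 and 6.50 CPM in sgCon tumors and 1.02, 0.452, 0.321, 0.324 and 1.60 CPM in sgTaz tumors. The fold change of Tbxa2r was -3.03 on the log2 scale (SE 0.71, edgeR adjusted p = 0.0960), and within each group its highest tumor was the one highest in lymph node genes. Of the receptors of prostaglandin E2, Ptger2 was at -0.13 (SE 0.23), Ptger3 at 0.61 (SE 0.35) and Ptger4 at -0.18 (SE 0.31) in log2 fold change, with edgeR unadjusted p of 0.568, 0.109 and 0.564. Ptgdr is not analysed here.

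Alox5, which makes the first intermediates of all leukotrienes in myeloid cells (ENSMUSG00000025701.12, chromosome 6 from 116410077 to 116461178, minus strand), was at 3.18, 7.16, 2.50, 3.0 and 2.67 CPM in sgCon tumors 1 to 5 and at 4.26, 2.91, 5.95, 6.23 and 9.24 CPM in sgTaz tumors 1 to 5. Apart from sgCon tumor 2, all sgCon tumors lay below 4 of the sgTaz tumors. The log2 fold change was 0.62 (SE 0.36, edgeR adjusted p = 0.341), with an exact permutation p of 0.143. Without sgCon tumor 2 the log2 fold change was 1.01 (edgeR adjusted p = 0.128) and the permutation p was 0.0397. Without sgTaz tumor 5 it was 0.38 (edgeR adjusted p = 0.581), and without both sgTaz tumor 5 and sgCon tumor 3 it was 0.28 (edgeR adjusted p = 0.721).

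Of 15 other genes of leukotrienes and lipoxygenases, 11 were tested and none passed the adjusted threshold of edgeR. DESeq2 and limma-voom each called 2 of them, Cysltr1 and Cysltr2, as higher. As higher, DESeq2 called 3.28% of all genes and limma-voom 4.63%. At an unadjusted p below 0.05, 3 were higher and none was lower, beside 9.86% and 11.9% of all genes. The median log2 fold change was 0.05. Cysltr2, a receptor of the cysteinyl leukotrienes, was at 2.52, 2.45, 3.31, 4.16 and 2.26 CPM in sgCon tumors and 4.39, 7.17, 5.52, 7.12 and 7.35 CPM in sgTaz tumors. The groups of Cysltr2 did not overlap, and its log2 fold change was 1.10 (SE 0.22, edgeR unadjusted p = 0.000435, adjusted p = 0.0824). Alox12, the lipoxygenase of platelets, was the other gene of this branch without overlap, at 0.964 ± 0.315 CPM in sgCon and 1.72 ± 0.457 CPM in sgTaz tumors (SD, n = 5 each), and was named for that. Among all genes, 2.44% were higher without overlap. Cysltr1, the other receptor of this kind, had a log2 fold change of 0.63 (SE 0.20, edgeR unadjusted p = 0.00999, adjusted p = 0.129). Alox5ap, the membrane protein that hands arachidonic acid to Alox5, was at 30.9 ± 7.87 CPM in sgCon and 27.2 ± 2.26 CPM in sgTaz tumors (SD, n = 5 each), a log2 fold change of -0.19 (SE 0.16). Fpr2, a receptor of lipoxins and formyl peptides on neutrophils and macrophages, had a log2 fold change of -0.56 (SE 0.28, edgeR unadjusted p = 0.0682). Alox12b and Ltb4r2 are not analysed here.

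**Figure D3:**
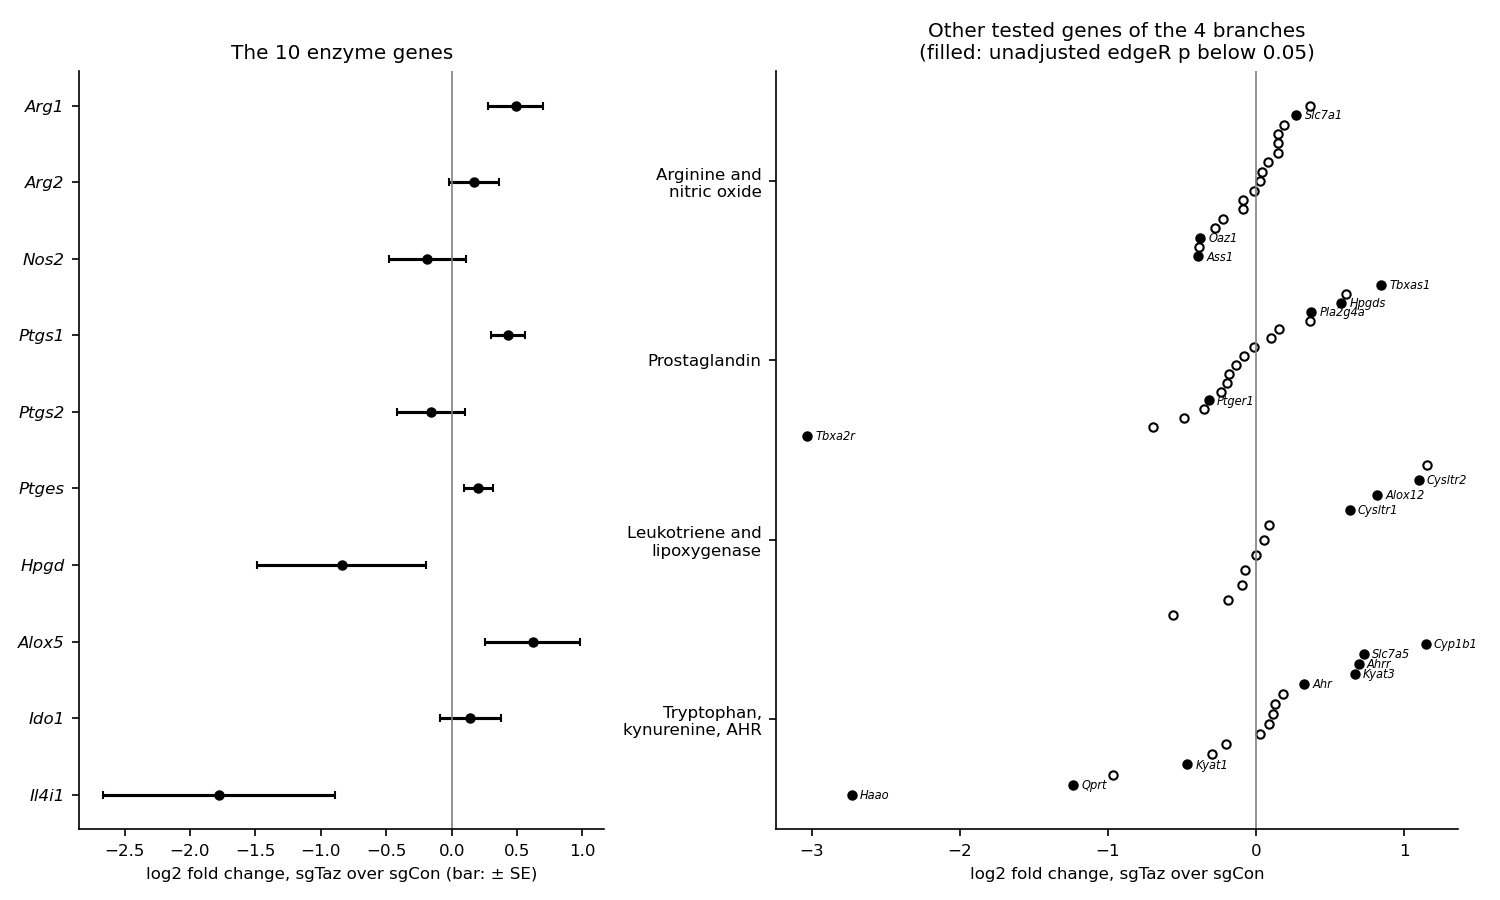
Log2 fold change of sgTaz over sgCon tumors in edgeR, on the left for the 10 enzyme genes with bars of 1 SE, and on the right for the 62 other tested genes of the 4 branches, filled and named where the unadjusted p was below 0.05, with the height inside a branch set by the order of the fold changes. Il4i1 and Hpgd are the farthest below 0 on the left and have the widest bars, and Ptgs1 lies at 0.43 with a narrow one.

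Ido1, the inducible enzyme that opens the ring of tryptophan (ENSMUSG00000031551.12, chromosome 8 from 24584136 to 24597009, minus strand), was at 5.88, 6.96, 12.1, 5.16 and 6.44 CPM in sgCon tumors 1 to 5. In sgTaz tumors 1 to 5 it was at 6.94, 9.43, 8.84, 8.58 and 6.55 CPM. All sgTaz tumors lay inside the sgCon range, whose top was set by sgCon tumor 3 alone. The log2 fold change was 0.14 (SE 0.23, edgeR adjusted p = 0.747), with an exact permutation p of 0.444, and with 1 tumor left out it lay between 0.04, without sgCon tumor 4 (edgeR adjusted p = 0.932), and 0.41, without sgCon tumor 3 (edgeR adjusted p = 0.230).

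Il4i1, an oxidase of phenylalanine, tryptophan and tyrosine known from B cells, dendritic cells and macrophages (ENSMUSG00000074141.13, chromosome 7 from 44816387 to 44840809, plus strand), varied most of the 10 genes between tumors. It was at 10.1, 15.7, 83.6, 3.89 and 29.5 CPM in sgCon tumors 1 to 5 and at 1.66, 2.97, 6.64, 3.08 and 27.4 CPM in sgTaz tumors 1 to 5. Tumors 1, 2 and 4 of the sgTaz group lay below every sgCon tumor, and sgTaz tumor 5 stood between sgCon tumors 2 and 5. The mean was 28.6 ± 32.2 CPM in sgCon and 8.35 ± 10.8 CPM in sgTaz tumors (SD, n = 5 each). The edgeR fit gave a log2 fold change of -1.78 (SE 0.89) with an adjusted p of 0.267, and the exact permutation test gave p = 0.111. The log2 fold change was -2.97 without sgTaz tumor 5 (edgeR adjusted p = 0.0923) and -0.82 without sgCon tumor 3 (edgeR adjusted p = 0.587). Without both of them, an alternative chosen after the data were seen, it was -2.0 with an edgeR adjusted p of 0.117.

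The sgCon tumors high in Il4i1 were those high in lymphoid genes, and in sgTaz tumors this held for tumor 5. In sgCon tumors the order from high to low was tumor 3, 5, 2, 1 and 4 for Il4i1, for Hpgd and for the summed markers of B cells, T cells and lymph node stroma alike, and in sgTaz tumors, tumor 5 was the highest in each of these. Below it the sgTaz orders differed, with tumors 3, 4, 2 and 1 for Il4i1, tumors 4, 3, 2 and 1 for Hpgd, tumors 3, 4, 1 and 2 for B cells, tumors 1, 3, 2 and 4 for T cells and tumors 4, 3, 1 and 2 for lymph node stroma. The summed dendritic cell markers stood in the order 3, 5, 4, 2 and 1 in sgCon and 5, 1, 3, 4 and 2 in sgTaz tumors. Most of this sum was Fscn1, at 277 ± 27.1 CPM in sgCon and 282 ± 14.6 CPM in sgTaz tumors (SD, n = 5 each). Within the sgCon group Flt3, Xcr1, Clec9a, Ccr7, Siglech and Ccl22 were highest in tumor 3, and Zbtb46, Cd209a and Fscn1 were not. Of the dendritic cell markers, Ccl22 alone had the order of Il4i1 in both groups, and Ccr7 and Flt3 had it in sgCon tumors only. The 8 B cell markers summed to 149, 223, 953, 70.8 and 429.8 CPM in sgCon tumors 1 to 5 and to 7.89, 7.36, 21.8, 12.1 and 224 CPM in sgTaz tumors 1 to 5. All 8 had log2 fold changes below 0, as had all 7 T cell markers, at a summed 98.4 to 648 CPM in sgCon and 77.7 to 203 CPM in sgTaz tumors. Of the lymph node genes, Glycam1, the sulfated ligand of L-selectin on high endothelium, was at 0 counts in 3 tumors and Chst4, which sulfates such ligands, in 4. The part of these cells in the levels of Il4i1 and Hpgd was not tested. Il4i1 shares 3423 of its 4080 exon bases with Tbc1d17 on the opposite strand, 97 with Nup62 and 82 with Atf5, and without a stated strand setting its counts are uncertain. Tbc1d17 itself was at 38.3, 33.8, 60.6, 39.0 and 44.3 CPM in sgCon tumors and 37.2, 38.5, 40.3, 35.9 and 44.6 CPM in sgTaz tumors. It was highest in sgCon tumor 3 and sgTaz tumor 5, as Il4i1 was, and the part of its reads in the counts of Il4i1 was not tested.

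**Figure D4:**
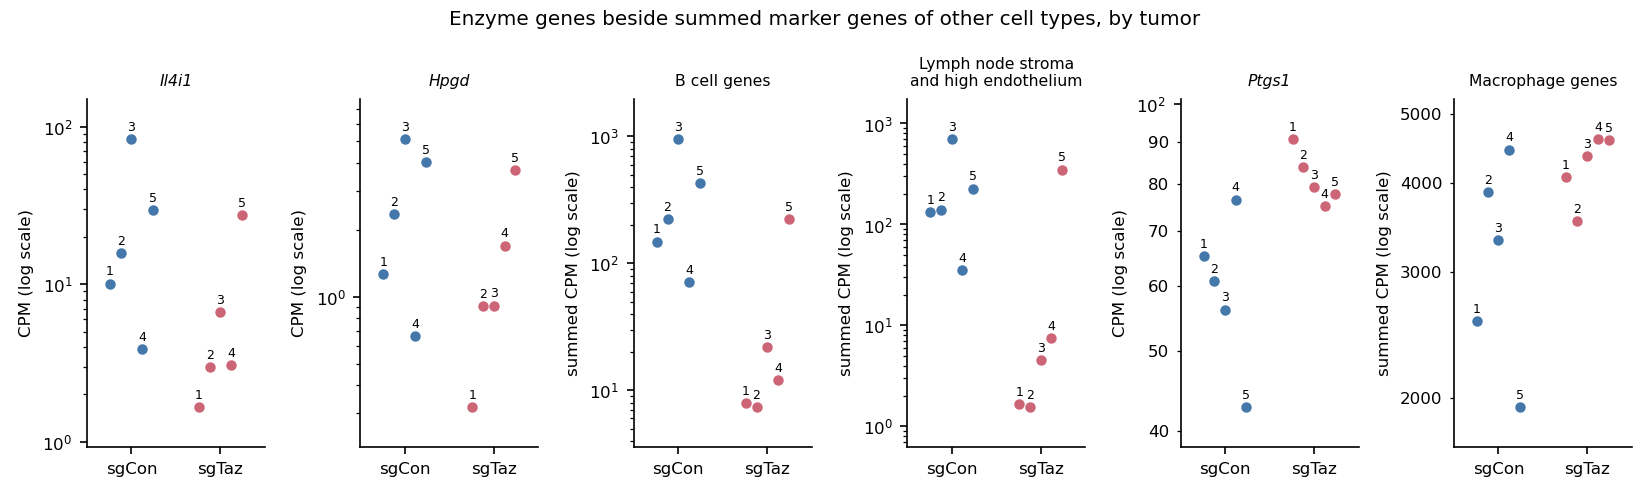
CPM of Il4i1, Hpgd and Ptgs1 beside the summed CPM of marker genes of B cells, of lymph node stroma and high endothelium, and of macrophages, in each tumor on log axes, with sgCon tumors in blue, sgTaz tumors in red and points numbered by tumor. The sgCon tumors stand in the same order, 3, 5, 2, 1 and 4, in the first 4 panels, and sgTaz tumor 5 is the highest of its group there.

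The log2 ratio of Il4i1 to Ido1, both enzymes of aromatic amino acids, was 0.77, 1.16, 2.78, -0.40 and 2.17 in sgCon tumors 1 to 5 and -1.99, -1.63, -0.41, -1.44 and 2.05 in sgTaz tumors 1 to 5. Tumors 1 to 4 of the sgTaz group lay below every sgCon tumor, tumor 3 only just, and sgTaz tumor 5 lay among the highest. The difference of -1.98 gave an exact permutation p of 0.0635 and an adjusted p of 0.146 over the 5 ratios.

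Of 20 other genes of tryptophan breakdown and of the aryl hydrocarbon receptor, 16 were tested and none passed the adjusted threshold of edgeR. DESeq2 and limma-voom called Haao as lower, and limma-voom also called Cyp1b1 as higher. Among all genes, DESeq2 called 3.47% as lower, and limma-voom 4.63% as higher and 5.8% as lower. At an unadjusted p below 0.05, 5 were higher and 3 were lower, beside 9.86% and 11.9% of all genes. The median log2 fold change was 0.10. Cyp1b1, a target of the aryl hydrocarbon receptor, was at 23.8, 77.0, 56.3, 65.9 and 31.4 CPM in sgCon tumors and 154, 37.9, 164, 116 and 90.5 CPM in sgTaz tumors, with a log2 fold change of 1.14 (SE 0.40, edgeR unadjusted p = 0.0149, adjusted p = 0.148). In 4 of 5 sgTaz tumors Cyp1b1 was above all sgCon tumors, and sgTaz tumor 2 was within their range. Ahr, the receptor itself, had a log2 fold change of 0.33 (SE 0.14, edgeR unadjusted p = 0.0349), and Kyat3, which turns kynurenine into kynurenic acid, had 0.67 (SE 0.27, unadjusted p = 0.0305). Haao, a late enzyme of the kynurenine pathway, was at 6.18, 5.56, 24.9, 4.11 and 9.93 CPM in sgCon tumors and 1.08, 0.323, 1.07, 0.971 and 4.22 CPM in sgTaz tumors. The fold change of Haao was -2.73 on the log2 scale (SE 0.67, edgeR adjusted p = 0.0960), with sgTaz tumor 5 the only one inside the sgCon range. Its highest tumors, sgCon tumor 3 and sgTaz tumor 5, were those highest in lymph node genes, whose part in its level was not tested. Kyat1, a second enzyme of kynurenic acid, stood at -0.47 (SE 0.15, edgeR unadjusted p = 0.00980), Kmo, which hydroxylates kynurenine, at -0.96 (SE 0.71, unadjusted p = 0.202) and Kynu, which cleaves it, at 0.09 (SE 0.24, unadjusted p = 0.722). Tdo2, Acmsd, Aadat and Cyp1a1 are not analysed here. Over the 4 branches together, 62 of 76 other genes were tested, 12 were higher and 7 lower at an unadjusted p below 0.05, beside 9.86% and 11.9% of all genes, and their median log2 fold change was 0.03.

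The genes whose level varied most like that of each enzyme gene over the 10 tumors were sought among 14065 genes with a mean of at least 1 CPM, after the group means were taken off. These correlations are descriptions of 10 libraries, and the genes share the libraries and their depth. Since the highest r of 14065 genes were picked for each enzyme gene, high values can arise from that choice alone. Il4i1 varied most like Cd37, a tetraspanin of B cells (r = 0.991, rho = 0.988), and Gpr18, a receptor of lymphocytes (r = 0.983, rho = 0.964). Hpgd varied most like Setbp1 (r = 0.986, rho = 0.988) and Igkv1-135, a gene segment of the immunoglobulin light chain (r = 0.967, rho = 0.952). Arg1 varied most like Fabp5, a fatty acid-binding protein (r = 0.965, rho = 0.952), and Glipr1 (r = 0.922, rho = 0.879). Nos2 varied most like Paxbp1 (r = 0.955, rho = 0.927) and Zbp1, a sensor of nucleic acids induced by interferon (r = 0.938, rho = 0.891). None of these 4 partners of Arg1 and Nos2 is on the list of arginine genes, which, with so few genes picked from 14065, says nothing about that list. For Ptgs1 they were AC102342.2 (r = 0.972, rho = 0.879) and Arl11 (r = 0.937, rho = 0.867), and for Ptgs2 Dleu2 (r = 0.955, rho = 0.855) and Cited2 (r = 0.922, rho = 0.988). Arg2 had Parg (r = 0.945, rho = 0.830) and Chl1 (r = 0.939, rho = 0.891), and Ptges had Ppia (r = 0.972, rho = 0.879) and Tmem198b (r = 0.970, rho = 0.927). Alox5 had Tmem120b (r = 0.943, rho = 0.794) and Gm5970 (r = 0.934, rho = 0.867), and Ido1 had Mfn2 (r = 0.953, rho = 0.879) and Zfp784 (r = 0.939, rho = 0.855). No enzyme gene of the 10 was among the pair most like another, which, with each pair picked from 14065 genes, does not show that the enzymes varied apart. Among pairs of the 10, Hpgd and Il4i1 had the highest r, at 0.905 (rho = 0.939). Ptges and Il4i1 had the lowest, at -0.749 (rho = -0.770).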

How the data were processed

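RNA of 10 whole tumors, 5 sgCon and 5 sgTaz, was sequenced by the authors. The authors mapped the reads to mm10 (GRCm38) by STAR, run in 2 passes on a GENCODE annotation, and counted reads per gene with featureCounts of Subread. What the authors deposited are raw counts, 1 whole number per gene and tumor, with no scaling. Tool versions and the strand setting are not given in the sources used here. Of the columns of the table, 5 matched no sample and were not used. Of 17864 identifiers, 17860 were found in GENCODE M21, which gave names, positions and exon lengths.

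Counts were analysed with edgeR 4.0.16 in R 4.3.3 (TMM scaling, genes kept by filterByExpr, quasi-likelihood fit and test by group, p adjusted by Benjamini-Hochberg over 14816 genes, threshold 0.05). DESeq2 1.42.0 and limma 3.58.1 were alternatives, with RLE and upper-quartile scaling, other filters, each tumor left out and the replicate number as a block. Exact permutation tests and ratios used log2 CPM with a prior count of 2, in Python 3.11.15 with scipy 1.17.1. With 5 against 5 tumors the smallest p of this test is 0.00794. At the depth of these libraries, 3 counts are between 1.53e-05% and 2.46e-05% of a tumor's total, a floor that covers counting error only. Promoters are those of RefSeq for GRCm38.p6. The steps were tested on simulated data. The enzyme genes, the lists, the ratios and the markers were chosen with earlier results of these data known. Named are all 10 enzyme genes and, of each branch, the pair with the smallest edgeR p in each direction and the set partners of the enzymes. The values of Ptger1, which this rule names, are not reported here, and Ptger1 stays in the counts of its branch.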

Additional observations from a re-analysis of the deposited data

Results flagged for a closer look

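Over the 10 enzyme genes and 5 ratios in both groups, 30 sets of 5 tumors were looked at for a tumor far from the other 4 of its group, and 5 sets had one, where chance alone gives about 1.5. The ratios are made from the same genes and all sets share the tumors, so this count cannot show an excess over chance. On the log2 CPM scale, Nos2 stood at 5.84 in sgCon tumor 4, below the 6.64 to 6.83 of the other sgCon tumors. Nos2 also stood at 7.38 in sgTaz tumor 2, above the 5.91 to 6.24 of the other sgTaz tumors. Alox5 stood at 2.86 in sgCon tumor 2, above the 1.39 to 1.73 of the other sgCon tumors. This was also the sgCon tumor with the highest summed markers of neutrophils (819 CPM), monocytes (474.5 CPM), mast cells (96.55 CPM) and adipocytes (124.3 CPM). The part of these cells in the level of Alox5 was not tested. The log2 ratio of Arg1 to Arg2 was 3.88 in sgTaz tumor 4, below the 4.55 to 4.79 of the other sgTaz tumors. The log2 ratio of Ptgs2 to Hpgd was 4.01 in sgTaz tumor 5, below the 6.18 to 6.91 of the other sgTaz tumors, and this was the sgTaz tumor with the highest lymph node genes, at a summed 350 CPM. It was also the highest of its group in the summed markers of neutrophils, dendritic cells, mast cells, B cells, T cells and fibroblasts.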

How the results depend on the processing

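No log2 fold change, permutation difference or ratio of the 10 enzyme genes changed sign under any alternative run. Over all genes, edgeR called 1 gene higher and 0 lower in sgTaz tumors (1461 and 1765 at an unadjusted p below 0.05). DESeq2 called 527 higher and 558 lower, and limma-voom 686 and 860. Without a filter on low counts edgeR called 0 higher (1759 at an unadjusted p below 0.05), and with at least 10 counts in every tumor 4 higher and 1 lower. With each tumor left out in turn, 0 to 42 were higher and 0 to 130 lower, with 42 and 130 without sgTaz tumor 5 and 40 and 35 without sgTaz tumor 2. Without both sgCon tumor 3 and sgTaz tumor 5, chosen after seeing the data, 51 were higher and 136 lower. Of the enzyme genes, DESeq2 and limma-voom each called 1, Ptgs1, with log2 fold changes of 0.45 and 0.46, and the other alternatives called 0. In the permutation test, leaving out 1 tumor moved the difference of Arg1 between 0.43 and 0.69, of Ptges between 0.15 and 0.29, of Alox5 between 0.43 and 0.89 and of Il4i1 between -2.40 and -1.22, with p below the threshold for Arg1 without sgCon tumor 3, Ptges without sgCon tumor 4, Alox5 without sgCon tumor 2 and Il4i1 without sgTaz tumor 5 (exact permutation p = 0.0318). Hpgd has no value under the filter of 10 counts, which it did not pass. The cause of these differences was not tested. Deviations from the group means had r of -0.15, -0.24, -0.05, 0.09 and 0.22 between tumors with the same number, for numbers 1 to 5. These weak values of mixed sign cannot settle whether the numbers pair tumors. The edgeR fit with the replicate block called 0 genes higher and 0 lower (1064 and 1398 at an unadjusted p below 0.05) and none of the 10 enzyme genes. With the block, 4 of the 10 had an unadjusted edgeR p below 0.05, against 2 without it. Those 4 were Arg1 (0.0104), Ptgs1 (0.00738) and Ptges (0.0364) as higher and Il4i1 (0.0109) as lower. Depth limits Hpgd most, with 5 to 82 counts per tumor.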
